A study of Mus musculus with 6 samples.

Results

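Transcripts of 10 genes that mark neutrophils, monocytes and macrophages were followed in natural killer (NK) cells sorted from mouse spleen. The 10 genes were taken by symbol from a table of 55291 gene names, and all 10 were found there. They are S100a8, S100a9, Lcn2, Ly6g, Retnlg and Cxcr2, usually read as neutrophil genes, and Csf1r, Cst3, Lyz2 and Adgre1, usually read as monocyte and macrophage genes. The study set NK cells of mice wild type for heat shock factor 1 (WT 1, 2 and 3) against those of mice carrying serine to alanine changes in that factor (S303/7A 5, 6 and 7), all at steady state. After enrichment of splenocytes on DX5 beads, cells with CD49b and without CD3e on their surface were sorted, and each library came from 1 mouse. The submitters describe the S303/7A mice as HSF1-enhanced. The gate holds no marker that removes granulocytes, monocytes or platelets. The age, sex and strain of the mice were not stated in the labels.

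Neutrophils and monocytes are short-lived phagocytes made in bone marrow, and the spleen holds both as well as resident macrophages. S100A8 and S100A9 pair to form calprotectin, the most abundant protein of the neutrophil cytosol, and LCN2 is a granule protein that binds bacterial iron carriers. LY6G is a surface antigen largely restricted to mouse neutrophils, and RETNLG is a resistin-like secreted protein. CXCR2 is the receptor through which neutrophils follow ELR-type CXC chemokines. CSF1R is the receptor for CSF1 and IL-34 on which monocytes and macrophages depend, ADGRE1 is the F4/80 antigen, LYZ2 is the lysozyme of myeloid cells, and CST3 is cystatin C, a secreted inhibitor of cysteine proteases that many cell types make.

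Total counts ranged from 43189163 to 72736406, with all 3 S303/7A libraries below all 3 WT libraries, so depth moved with genotype. The sort was checked by Ncr1 and Nkg7, genes of the NKp46 receptor and of a cytotoxic granule protein. Their lowest values in any library were 2140 and 4609 CPM (counts scaled to library size with TMM factors). These levels do not measure purity. Of 10 tested NK genes 7 had a log2 fold (S303/7A over WT) above 0 and 3 below. Without overlap, 2 lay higher in S303/7A, Ncr1 among them, and 2 lower, beside 16.0% of all genes in either direction. Klrb1c was called lower (2256 to 2663 CPM in WT, 1640 to 1755 in S303/7A, edgeR adjusted p 0.0454), beside 0.231% of all genes. Library S303/7A 6 stood apart for calprotectin and 2 granule genes, and WT 2 for Retnlg, Adgre1 and several other cell type markers. These libraries are named beside the results they touch. In sorted bulk RNA, fewer cells of a type and less RNA per cell cannot be told apart.

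The levels of the 10 genes spanned a wide range. Per kilobase of exon, which allows genes to be compared, Cst3 was highest with a mean of 80.4 CPM per kb over the 6 libraries, followed by Lyz2 (15.2), Cxcr2 (11.8) and Retnlg (8.04). Adgre1 (1.60), S100a9 (1.39), Csf1r (0.919) and S100a8 (0.689) formed a second tier, and Lcn2 (0.0376) and Ly6g (0.00738) were at the limit of detection. The ranges over libraries overlapped between every pair of neighbours in this order except Cst3 and Lyz2, and S100a8 and Lcn2. Cst3 and Lyz2 together made up 59.2% to 79.6% of the CPM of all 10 genes, and Cxcr2 12.9% to 24.8%.

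**Figure D1:**
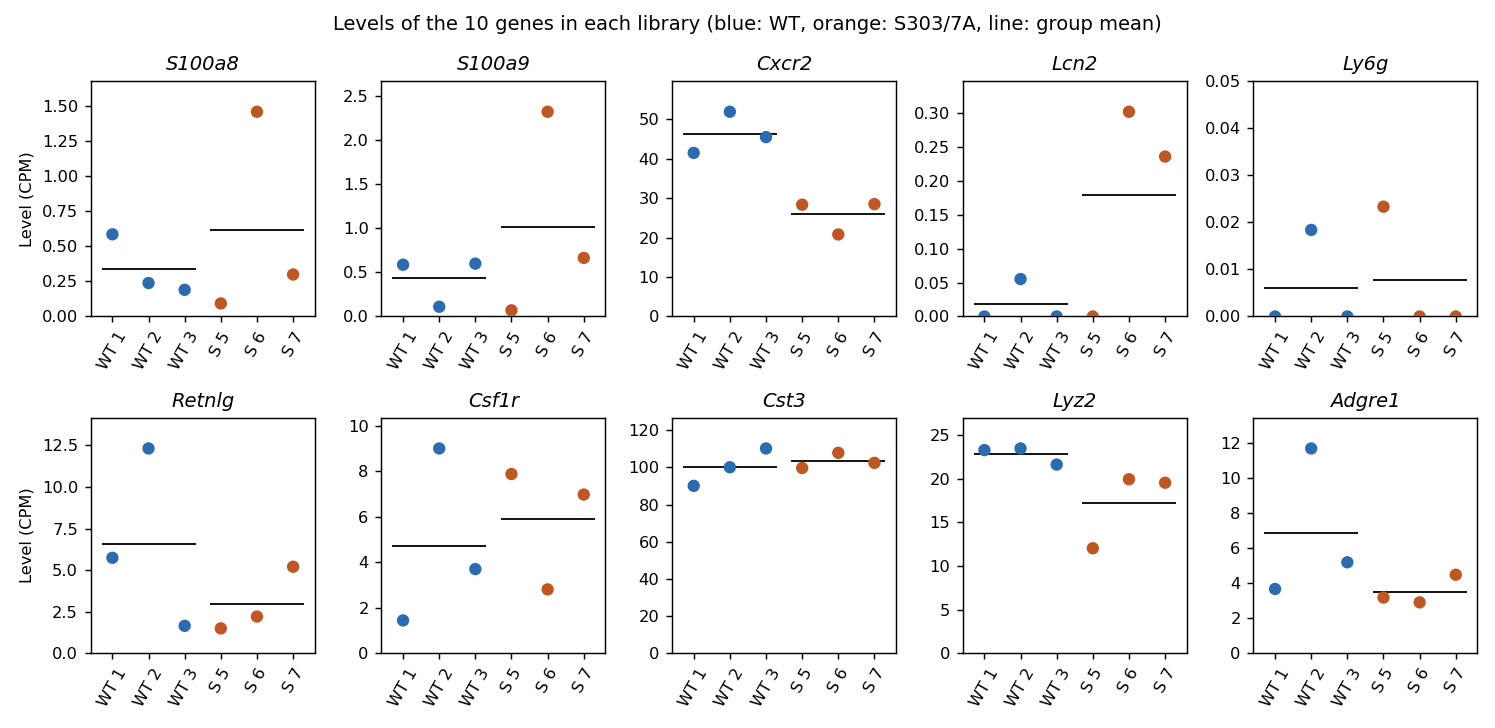
Level of each of the 10 genes in CPM on a linear axis (each panel has its own scale), with 1 point per library and a line at the mean of the 3 libraries of a genotype. S on the axis stands for S303/7A. Only Cxcr2 and Lyz2 have all 3 S303/7A points below all 3 WT points, as did 8.37% of all genes tested.

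Calprotectin transcripts were scarce and uneven between mice of the same genotype. S100a8 (chromosome 3, 90668978 to 90670035, GRCm38) had 0.587, 0.239 and 0.190 CPM in WT 1, 2 and 3, against 0.0933, 1.46 and 0.300 CPM in S303/7A 5, 6 and 7. The highest and the lowest values were both in S303/7A libraries, so the groups overlapped. S100a9 (chromosome 3, 90692632 to 90695721) was at 0.587, 0.110 and 0.599 CPM in WT, against 0.0700, 2.32 and 0.664 CPM in S303/7A, again with both extremes in S303/7A. The 145 reads of S100a8 and 221 of S100a9 over all libraries set the precision. In S303/7A 5 the 4 S100a8 reads allow 0.0254 to 0.239 CPM and in S303/7A 6 the 63 reads allow 1.12 to 1.87 CPM (exact 95% intervals, which cover counting error only since reads are not independent molecules). Those 2 intervals do not overlap. They belong to the lowest and the highest library, picked by their values, and are too narrow where several reads come from 1 molecule.

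Fitted log2 folds (S303/7A over WT) were 0.86 ± 0.98 (SE) for S100a8 and 1.22 ± 1.09 for S100a9, neither of them called (edgeR adjusted p 0.869 and 0.814). Both directions turned when S303/7A 6 was left out, with log2 folds of -0.77 and -0.24. The pooled SD of log2 CPM within genotypes was 1.49 for S100a8 and 1.99 for S100a9, at the 93.9th and 96.3th percentile of the 16480 genes tested, whose median was 0.263. The share of S100a9 in the reads of the pair was lowest in WT 2, at 31.6% (19 reads, exact 95% interval 12.6% to 56.6%). It was highest in WT 3, at 75.9% (58 reads, 62.8% to 86.1%). The intervals of these extremes do not overlap, but they too treat reads as independent molecules.

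Lcn2 and Ly6g were almost absent. Lcn2 (chromosome 2, 32384633 to 32388252) had 0, 3 and 0 reads in WT and 0, 13 and 11 in S303/7A, a ratio of 11.3 from counts with an exact 95% counting interval from 3.43 to 58.6. One S303/7A mouse had none, so this ratio holds for the libraries and not for the genotype. Ly6g (chromosome 15, 75155240 to 75159126) had 1 read in WT 2, 1 in S303/7A 5 and none in the other 4 libraries. The floor for a count of 0, taken as 3 reads, is 0.0700 CPM in the shallowest library. Neither gene passed the filter on low counts, so neither was tested.

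The promoters of S100a8, S100a9 and Cxcr2 are shown because the first pair varied widely and had both its extremes in S303/7A, while Cxcr2 took another course over the same libraries. Each window holds 300 bases around the RefSeq start site (GRCm38.p6), most of them upstream, at chr3:90668821-90669120 on the plus strand, chr3:90695672-90695971 on the minus strand and chr1:74153744-74154043 on the plus strand, written 5′ to 3′. Capitals mark matches to any of the motifs named after the sequences.
S100a8: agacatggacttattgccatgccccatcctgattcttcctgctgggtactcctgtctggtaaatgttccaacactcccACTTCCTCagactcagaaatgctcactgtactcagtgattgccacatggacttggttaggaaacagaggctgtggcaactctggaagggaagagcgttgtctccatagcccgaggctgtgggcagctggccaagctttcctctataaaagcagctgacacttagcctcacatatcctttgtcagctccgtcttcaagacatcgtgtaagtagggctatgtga
S100a9: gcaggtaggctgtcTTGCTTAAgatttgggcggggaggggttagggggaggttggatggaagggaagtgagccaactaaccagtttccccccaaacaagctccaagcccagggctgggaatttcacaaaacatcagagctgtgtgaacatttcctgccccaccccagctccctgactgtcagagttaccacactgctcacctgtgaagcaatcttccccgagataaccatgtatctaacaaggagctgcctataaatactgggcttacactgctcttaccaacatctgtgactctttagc
Cxcr2: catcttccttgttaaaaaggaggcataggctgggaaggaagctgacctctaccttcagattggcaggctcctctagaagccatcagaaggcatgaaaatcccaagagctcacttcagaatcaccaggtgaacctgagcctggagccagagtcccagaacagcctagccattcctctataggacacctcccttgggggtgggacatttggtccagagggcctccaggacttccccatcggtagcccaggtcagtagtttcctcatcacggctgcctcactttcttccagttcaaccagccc
The motifs were the minimal heat shock elements GAANNTTC and TTCNNGAA, which can overlap each other, the PU.1 core GAGGAAGT, and the C/EBP-type TTGCNNAA, all read on both strands. S100a8 held 1 PU.1 core and S100a9 held 1 C/EBP-type match, while the Cxcr2 window held none of them. A heat shock element stood in none of the windows of the 8 genes found in the table (Csf1r and Adgre1 were not matched), against 15.1% of 32851 promoters of the same length. The PU.1 core stood in 3.2% and the C/EBP-type motif in 10.8% of those promoters. No match says only that these letters are not in this window.

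Other genes of the neutrophil program divided into many near 0 and a few well measured. Of 39 genes in the lists of primary granule proteins, secondary and tertiary granule proteins, and receptors and other markers of mature neutrophils, 18 passed the filter, edgeR called 0, and 3 reached an unadjusted p under 0.05, all lower in S303/7A. Among all genes tested 0.364% were called and 9.68% reached an unadjusted p under 0.05. DESeq2 called 1 of the 18, beside 2.65% of all genes. In 4 of the 39 (Mrgpra2a, Stfa1, Stfa2 and Cxcl2) no library had a read, 19 stayed below 1 CPM in every library, those 4 included, and 6 reached at least 1 CPM in all of them. Those 6 were Cst7, which encodes cystatin F, Pglyrp1, a peptidoglycan recognition protein, Padi4, an arginine deiminase, Mmp9, a gelatinase, Mpo, myeloperoxidase, and Clec4e, the Mincle receptor. Cst7 (295 to 346 CPM in WT and 284 to 307 in S303/7A) and Pglyrp1 (150 to 176 and 146 to 162) overlapped between the genotypes. Together they made up most of the summed level of the lists, and which cells their reads came from was not tested. That level was 538 to 575 CPM in WT and 488 to 524 in S303/7A, without overlap. Summed apart, the primary granule list, the secondary and tertiary granule list, and the marker list each overlapped. Of the 18 tested genes 16 had a log2 fold below 0, and their median was -0.60 beside 0.01 over all genes tested. The marker list held 8 of the 18, all below 0, with a median of -1.84. Medians were -0.11 for the primary granule list and -0.21 for the secondary and tertiary granule list, with 5 tested genes each. Most of the marker list was low, and 1 of its 20 genes reached at least 1 CPM in all libraries.

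**Figure D2:**
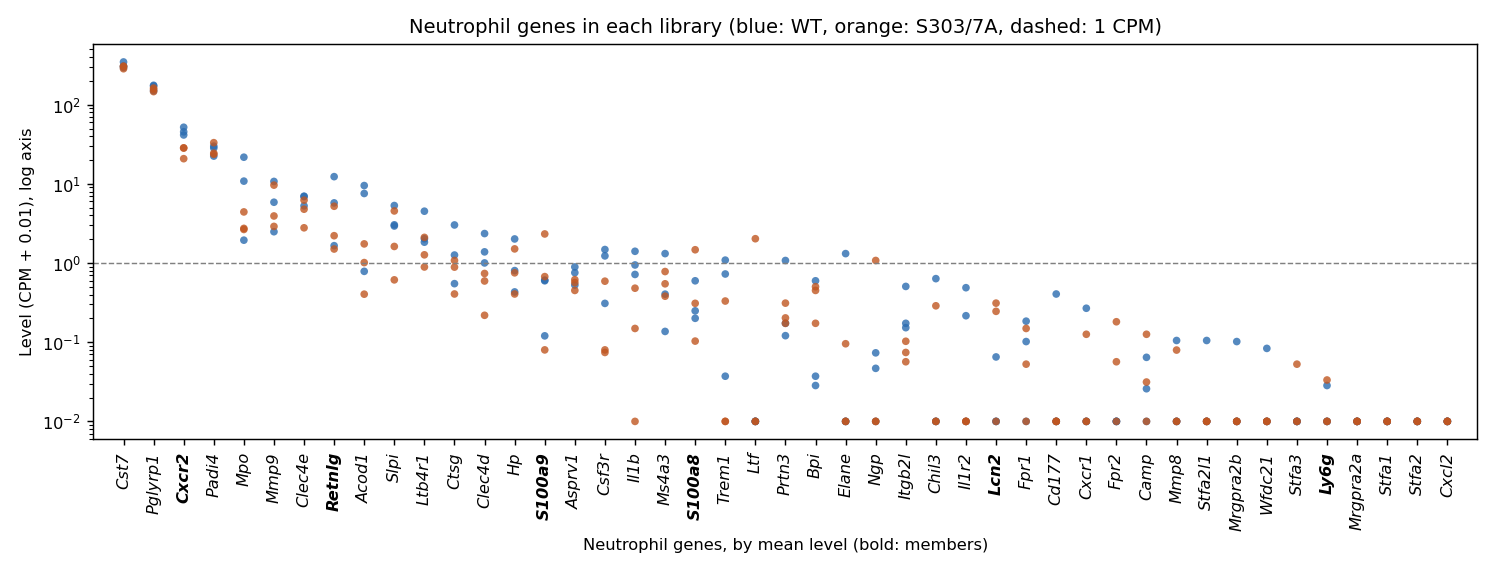
Level of the 6 neutrophil members (bold) and 39 further neutrophil genes in each library, as CPM + 0.01 on a log axis, ordered by mean level. Cxcr2 and Retnlg sit far to the left of S100a8, S100a9, Lcn2 and Ly6g.

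Mpo, the enzyme of primary granules that makes hypochlorous acid, was at 1.93, 21.7 and 10.8 CPM in WT, against 2.73, 2.64 and 4.41 CPM in S303/7A. Its lowest and highest values were both in WT, and it was not called (adjusted p 0.501, edgeR). Ctsg (0.397 to 3.02 CPM) and Ms4a3 (0.127 to 1.31 CPM), genes of the same granule stage, also had their highest values in WT 2. Of other genes in these lists Mmp9 (2.48 to 10.7 CPM over all libraries), Padi4 (22.4 to 33.1) and Ltb4r1, a leukotriene B4 receptor (0.881 to 4.50), overlapped between the genotypes. Ltf and Ngp, secondary granule genes chosen after their values were seen, were read almost only in S303/7A 6, at 2.02 and 1.07 CPM, against 0 and at most 0.0634 CPM elsewhere. That library was the one highest in S100a8, S100a9 and Lcn2, and it had 87 Ltf reads where the other 5 had none.

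Among surface and secreted markers Clec4d, a lectin receptor, did not overlap between the genotypes (0.993 to 2.35 CPM in WT and 0.209 to 0.728 in S303/7A), and its log2 fold was -1.63 ± 0.55 (SE; adjusted p 0.419, edgeR). Acod1, the itaconate synthase, was at 7.55, 9.50 and 0.775 CPM in WT, against 1.00, 0.394 and 1.73 CPM in S303/7A, so WT 3 lay within the S303/7A range. Slpi, a secreted protease inhibitor, ranged from 0.603 to 5.31 CPM and Clec4e from 2.78 to 6.98 CPM, both with overlap. Csf3r, the receptor for granulocyte colony-stimulating factor, was chosen after its values were seen. It was at 0.299 to 1.47 CPM in WT (179 reads) and 0.0642 to 0.580 in S303/7A (31 reads), with overlap. Of the receptors of calprotectin and lipocalin 2, 4 of 7 were tested and 0 called. Bsg (234 to 301 CPM) and Tlr4 (16.4 to 29.6 CPM) were well measured in every library, whereas Ager (0.882 to 1.91) and Slc22a17 (0.492 to 3.20) were low.

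Cxcr2 was measured with 12211 reads where Ly6g and Lcn2 were near 0. The gene (chromosome 1, 74153989 to 74161246) had 41.4, 51.8 and 45.4 CPM in WT 1, 2 and 3, against 28.3, 20.8 and 28.5 CPM in S303/7A 5, 6 and 7. Every S303/7A library lay below every WT library, as did 8.37% of all genes tested, while 7.64% lay above without overlap and 16.0% did not overlap in either direction. Means were 46.2 ± 5.26 CPM for WT and 25.9 ± 4.39 CPM for S303/7A (SD, n = 3 each). The log2 fold of -0.84 ± 0.16 (SE) corresponds to a level 1.79 times higher in WT, and its unadjusted p in edgeR was 0.00105, where 5.47% of all genes were lower with an unadjusted p under 0.05. The adjusted p of 0.117 did not pass the threshold of 0.05.

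The call depended on the method. DESeq2 called Cxcr2 lower (adjusted p 0.000109, with 2.65% of genes called), as did edgeR without the filter on low counts (adjusted p 0.0262, with 0.502% called), while limma-voom (0.231% called) and the other settings did not. Leaving out 1 library at a time kept the log2 fold between -0.92 and -0.70, with adjusted p from 0.174 to 0.424 in edgeR. Counting error was small at this depth, and the spread of Cxcr2 within genotypes (0.217 on the log2 scale) was at the 43.2th percentile of all genes tested. Its neighbour and nearest relative Cxcr1 shares 74.1% of 880 bases with it and had 24 reads in all.

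The ratio of Cxcr2 to calprotectin reads differed widely from mouse to mouse. There were 35.3, 148 and 57.6 Cxcr2 reads per S100a8 or S100a9 read in WT and 173, 5.50 and 29.5 in S303/7A. S303/7A 6, with the most calprotectin, had the least Cxcr2, and S303/7A 5, with the least calprotectin, had 28.3 CPM of Cxcr2 beside 28.5 CPM in S303/7A 7. Ly6g, the neutrophil antigen gene, had 2 reads in all.

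Ranked by likeness of pattern (the root mean square difference of centred log2 CPM over the 6 libraries), the 4 genes nearest to Cxcr2 among 10817 were Adgrg1, an adhesion receptor, Slc41a3, a magnesium transporter family gene, Ms4a2, the beta chain of the IgE receptor, and Pgam2, a phosphoglycerate mutase. Their differences from Cxcr2 ranged from 0.07 to 0.09, against 0.46 for a flat profile. Among the nearest 5% stood 7 of 10 basophil genes and 8 of 9 measured platelet genes, but 0 of 11 measured genes of the neutrophil lists, 2 of 10 monocyte genes and 3 of 11 macrophage genes. S100a8 and S100a9 ranked among the most distant, at places 10726 and 10773. Genes that differ between the genotypes resemble each other by that alone, and this ranking shares the libraries with the fold, so it is a description.

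**Figure D3:**
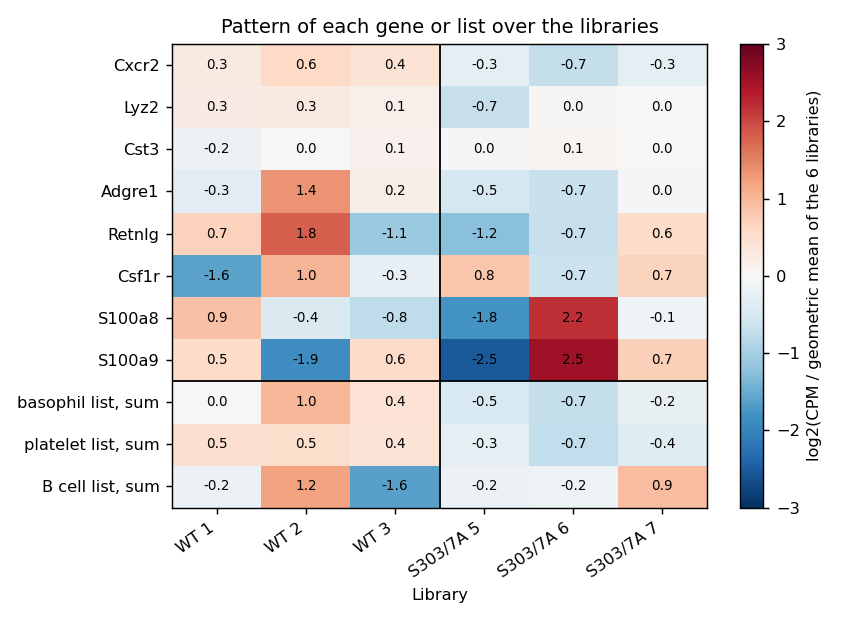
Colour and number give log2 of CPM over the geometric mean of the 6 libraries for 8 members and for the summed CPM of the basophil, platelet and B cell lists, from -3 (blue) to 3 (red). The row of Cxcr2 resembles those of the basophil and platelet sums, while S100a8 and S100a9 peak in S303/7A 6 and Retnlg and Adgre1 in WT 2.

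Basophils and platelets carry CD49b, as NK cells do, and most of their markers were lower in S303/7A, as Cxcr2 was. Log2 folds were below 0 for 9 of 10 tested basophil genes and 9 of 9 tested platelet genes. Il3ra went the other way, higher in every S303/7A library (log2 fold 0.43), and Mcpt8, Prss34 and Il4 overlapped between the genotypes. Gp1bb, not tested, had 20 reads in WT and 30 in S303/7A. The summed level of 10 basophil genes was 425, 864 and 580 CPM in WT, against 315, 264 and 368 CPM in S303/7A, and that of 10 platelet genes was 280, 285 and 262 CPM against 162, 118 and 154 CPM. Both sums were lower in every S303/7A library. The basophil list had 1 of 10 tested genes called lower, Ms4a2, and a median log2 fold of -1.01, and the platelet list had 1 of 9 called lower, Vwf, which encodes von Willebrand factor, and a median of -1.06, beside a median of 0.01 and 0.231% called lower over all genes tested. Both calls (edgeR adjusted p 0.0470 each) were lost in all 6 fits without 1 library, and that of Ms4a2 also with limma-voom. DESeq2 called 5 basophil and 7 platelet genes, beside 2.65% of all genes. The median log2 fold stayed between -1.19 and -0.72 for the basophil list and between -1.18 and -0.90 for the platelet list in those fits without 1 library. Their part in the Cxcr2 result was not tested. None of the basophil or platelet genes was at 0 in all libraries.

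Among 7 ligands of CXCR2 the levels differed widely. Cxcl1, Cxcl2 and Cxcl15 had no read in any library (the floor of 3 reads is 0.0700 CPM in the shallowest), and Cxcl3 had 10 reads in all. Cxcl5 had 52 reads in WT and 1 in S303/7A. Scaled to depth this gave a ratio of 0.0271 (exact 95% counting interval 0.000674 to 0.158), and Cxcl5 was not called (adjusted p 0.155, edgeR). Ppbp, a chemokine of platelets, was at 53.1, 46.8 and 47.1 CPM in WT, against 45.9, 29.9 and 34.9 CPM in S303/7A (adjusted p 0.497, edgeR). Mif, a cytokine that also binds CXCR2, was level at 57.1 to 62.4 CPM in all 6 libraries. Of the 7 ligands 3 were tested and 0 called.

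Retnlg (chromosome 16, 48872621 to 48874496) was present in every library but followed neither calprotectin nor Cxcr2. It was at 5.74, 12.3 and 1.65 CPM in WT, against 1.49, 2.20 and 5.20 CPM in S303/7A. WT 2 was highest, WT 3 lay within the S303/7A range, and the level differed 8.25 times between the extremes. The log2 fold was -1.14 ± 0.73 (SE), not called (edgeR adjusted p 0.719). Without WT 2 it was -0.32. For 1 read of S100a8 or S100a9 there were 35.3 Retnlg reads in WT 2 but 0.583 in S303/7A 6. Retnlg shares 82.8% of 599 bases with its paralog Retnla.

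Of the monocyte and macrophage genes, Cst3 and Lyz2 varied less between libraries than Csf1r and Adgre1, whose highest library was 6.24 and 4.03 times the lowest. Cst3 (chromosome 2, 148871722 to 148875692) was at 90.1, 100.1 and 110.3 CPM in WT, against 99.7, 107.9 and 102.5 CPM in S303/7A. The groups overlapped, the log2 fold was 0.05 ± 0.09 (SE; adjusted p 0.939, edgeR), and the highest library was 1.22 times the lowest. The spread of Cst3 within genotypes was at the 17.8th percentile of all genes tested. Among the proteases cystatins inhibit and related genes, Ctsb (315 to 353 CPM) and Ctsc (465 to 594 CPM), both lysosomal cathepsins, were higher still, and 0 of 9 tested genes of that list were called in edgeR, with 0 at an unadjusted p under 0.05.

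Lyz2 (chromosome 10, 117277331 to 117282321) was at 23.3, 23.5 and 21.6 CPM in WT, against 12.0, 19.9 and 19.5 CPM in S303/7A. All 3 S303/7A libraries lay below WT, as they did for 8.37% of all genes tested. For Lyz2, 2 of them did so by little and S303/7A 5 by much. The log2 fold was -0.41 ± 0.21 (SE; adjusted p 0.605, edgeR), and it was -0.21 without S303/7A 5. Its paralog Lyz1 shares 95.8% of 1264 bases, so reads between the 2 are uncertain, and Lyz1 itself had no read in any library. The genes nearest to Lyz2 in pattern were Oxld1, Nprl3, Adgrb2, Hacl1 and Cog7, of which none is a gene of the myeloid lists. Their differences from Lyz2 were 0.08 to 0.11, against 0.33 for a flat profile.

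Csf1r (chromosome 18, 61100598 to 61132149) was at 1.44, 9.01 and 3.70 CPM in WT, against 7.88, 2.81 and 6.98 CPM in S303/7A. The lowest and the highest library were both WT. The log2 fold was 0.32 ± 0.66 (SE; adjusted p 0.939, edgeR) and turned to -0.11 without WT 1. Csf1r shares 873 exonic bases with Hmgxb3, which lies on the opposite strand and was at 64.4 to 76.6 CPM. No source used here gives the strand setting of the counting, and without strand the reads of the 2 genes cannot be told apart there. In pattern Nr6a1, Phxr4, Cxcl10, Plbd1 and H4c14 were nearest to Csf1r, with differences from 0.20 to 0.42 against 0.94 for a flat profile.

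Of the ligands of the CSF1 receptor, Csf1 was far above its receptor and Il34 near 0. Csf1 was at 84.1, 131 and 93.2 CPM in WT, against 63.8, 31.8 and 66.6 CPM in S303/7A. No S303/7A library reached the WT range, and the log2 fold was -0.92 ± 0.29 (SE) and the adjusted p was 0.371 in edgeR. Il34 had 28 reads in all.

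Adgre1 (chromosome 17, 57358691 to 57483527) was at 3.66, 11.7 and 5.18 CPM in WT, against 3.17, 2.90 and 4.47 CPM in S303/7A. WT 2 stood above the other 5 libraries, which lay between 2.90 and 5.18 CPM, and S303/7A 7 lay above WT 1. The log2 fold was -0.96 ± 0.44 (SE; adjusted p 0.560, edgeR) and -0.34 without WT 2. The ratio of Adgre1 to Csf1r reads was 2.54, 1.30 and 1.40 in WT and 0.402, 1.03 and 0.641 in S303/7A, so these markers of the same lineage did not keep a fixed proportion. The groups did not overlap in this ratio, which was computed on counts of the same library and was not tested. It was 1 of several ratios computed, and the uncertainty of Csf1r reads shared with Hmgxb3 holds for it too.

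**Figure D4:**
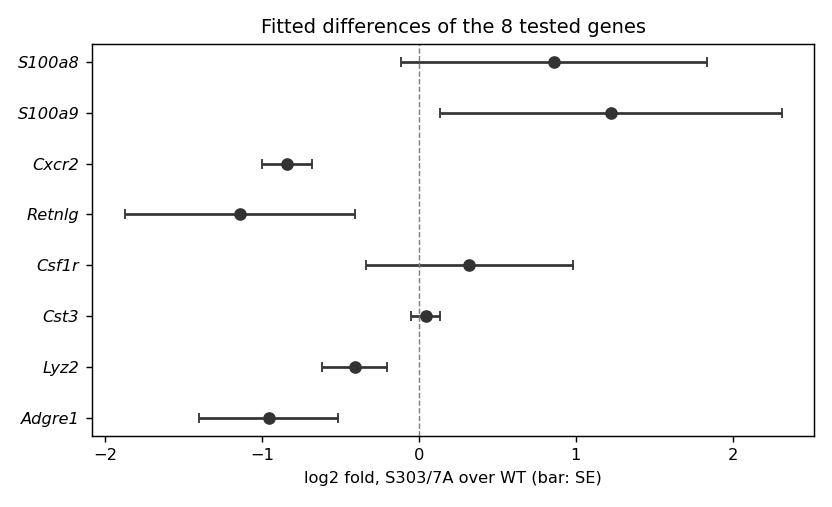
Fitted log2 fold of S303/7A over WT for the 8 tested genes, with bars of 1 SE on each side and a dashed line at no difference. Cxcr2 lies more than 5 SE below 0 but was not called (edgeR adjusted p 0.117). Cst3 lies on 0, and S100a8 and S100a9 have the widest bars.

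The wider monocyte, macrophage and transcription factor lists showed no called gene in edgeR. DESeq2 called 1 monocyte gene, 1 transcription factor gene and 0 macrophage genes, beside 2.65% of all genes. Of 17 tested monocyte genes 0 were called and 4 reached an unadjusted p under 0.05, all lower, with a median log2 fold of -0.52. Folds were below 0 for 16 of the 17, and 6 lay lower in S303/7A without overlap. Over all genes tested, 5.47% were lower with such a p and 8.37% lay lower without overlap. Of 16 tested macrophage genes 0 were called and 1 was lower with such a p, with a median of -0.14. Ccr2 (628 to 739 CPM), Ly6c2 (130 to 214), Itgam (161 to 224) and Cx3cr1 (52.4 to 108) were the highest of the monocyte list, and NK cells are known to express them. Fcgr1, the high-affinity IgG receptor gene of monocytes and macrophages, had 4 reads in all and Cd14 reached at most 0.993 CPM, both chosen after their values were seen. The highest macrophage genes were Trf, transferrin (101 to 124 CPM), Apoe, apolipoprotein E (13.8 to 35.2), Cd163, a haemoglobin scavenger receptor (8.28 to 12.3), and Cd68, a lysosomal glycoprotein (9.55 to 14.5). The summed monocyte list, most of it Ccr2, Ly6c2, Itgam and Cx3cr1, was 1202 to 1294 CPM in WT and 1107 to 1228 in S303/7A. The summed macrophage list was 191 to 239 and 168 to 210 CPM, and both sums overlapped between the genotypes.

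Of 10 tested transcription factors of myeloid cells 0 were called and 2 reached an unadjusted p under 0.05 in edgeR. Both were lower, beside 5.47% of all genes tested that were lower with such a p. Spi1, which encodes PU.1, was at 18.5, 28.1 and 22.9 CPM in WT, against 12.3, 10.2 and 15.7 CPM in S303/7A. The groups did not overlap, and the log2 fold was -0.86 ± 0.22 (SE) and the adjusted p was 0.253 in edgeR. Irf8, a factor of monocyte and dendritic cell development, was at 994 to 1379 CPM in WT and 706 to 978 in S303/7A (log2 fold -0.46 ± 0.15, adjusted p 0.380, edgeR). Id2 (1520 to 1975 CPM) and Zeb2 (194 to 307 CPM), both also NK cell factors, overlapped between the genotypes.

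Among the 8 members that passed the filter edgeR called 0, beside 0.364% of all genes (0.231% lower and 0.133% higher), and 1, Cxcr2, reached an unadjusted p under 0.05. Log2 folds were below 0 for Cxcr2, Retnlg, Lyz2 and Adgre1 and above 0 for S100a8, S100a9, Csf1r and Cst3. Taking the 6 neutrophil members as a sum gave 48.3, 64.6 and 47.9 CPM in WT, against 30.0, 27.1 and 34.9 CPM in S303/7A, and without Cxcr2 and Retnlg 1.17, 0.423 and 0.789 CPM against 0.187, 4.08 and 1.20 CPM. The first sum separated the genotypes and the second did not. The 4 monocyte and macrophage members summed to 118, 144 and 141 CPM in WT, against 123, 134 and 133 CPM in S303/7A, with overlap. Checked against the label of neutrophil transcripts, Ly6g and Lcn2 were at or near 0 and S100a8 and S100a9 reached at most 2.32 CPM. Retnlg ranged from 1.49 to 12.3 CPM, and Cxcr2 did not fall below 20.8 CPM in any library. Of the 39 further neutrophil genes 6 reached at least 1 CPM in every library. Cst7 and Pglyrp1 were the highest of them, and which cells their reads came from was not tested.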

How the data were processed

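RNA-seq counts of 6 libraries (3 WT, 3 S303/7A) were analysed. The authors deposited raw counts per gene name. The submitters' processing notes name build GRCm38 (mm10) and the tools STAR, Trimmomatic, featureCounts and DESeq2, without versions, annotation release or strand setting. SMART-seq HT was the library kit, per the labels' protocols.

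Genes passing filterByExpr (minimum count 10, minimum total 15) were tested in R 4.3.3 with edgeR 4.0.16, using TMM factors and the quasi-likelihood test of S303/7A against WT. Benjamini-Hochberg adjustment was over all 16480 genes tested, and a gene with an adjusted p under 0.05 is called. SEs are Wald-type from the same fit. The script was tested on simulated data. CPM are TMM-scaled. Log2 CPM used a prior count of 0.5. Alternatives were DESeq2 1.42.0, limma-voom (limma 3.58.1), RLE factors, library totals, no filter, thinning to equal totals and leaving out each library. Exon lengths and positions are from GENCODE release M21, and shared bases from blastn of its transcripts.

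The members and gene lists were chosen with earlier results of these data known. Named genes are the 10 members, called genes of the other lists, the 4 genes of highest mean CPM in each myeloid list, the 5 nearest in pattern (mean of at least 1 CPM, predicted loci left out) to S100a8, Cxcr2, Csf1r and Lyz2, and Ncr1 and Nkg7. Genes named outside this rule were chosen after their values were seen. One gene that the rule names is not reported here. No batch is labelled. Replicates are separate mice per the labels. The authors' normalized table was not used.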

Additional observations from a re-analysis of the deposited data

How the results depend on the processing

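Over 12 alternative settings, Retnlg, Lyz2 and Adgre1 kept their direction and stayed uncalled, and Cxcr2 kept its direction. Cxcr2 passed with DESeq2 (log2 fold -0.84) and without the low-count filter (-0.84), which gave 1 called member each, against 0 with RLE factors, library totals, limma-voom, thinning and each of the 6 fits without 1 library. Leaving out 1 library moved the log2 fold from -0.77 to 1.51 for S100a8 and from -0.24 to 1.77 for S100a9 (the negative values without S303/7A 6), from -0.11 to 1.19 for Csf1r and from -0.029 to 0.12 for Cst3 (the negative values without WT 1). Over all genes 60 were called, against 437 with DESeq2, 171 without the filter and 38 with limma-voom, and from 5 (without WT 2) to 57 (without S303/7A 6) when 1 library was left out. Of the other lists' genes 3 were called, all lower in S303/7A (Ms4a2, Vwf and the NK1.1 antigen gene Klrb1c). This compares with 21 with DESeq2 and 12 without the filter, and from 0 to 2 when 1 library was left out. The cause of these differences was not tested. No paired analysis was possible because the replicate numbers of the groups (1 to 3 and 5 to 7) are not shared. With at most 163 calprotectin reads in a library, differences of S100a8 and S100a9 within the intervals given were not detectable at this depth.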

Other observations

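The genes nearest to S100a8 in pattern, among 10818 with a mean of at least 1 CPM, were Zfp108, Ror1, Gstm7, Spaca1 and Prss30, with root mean square differences from 0.55 to 0.75 on the log2 scale against 1.22 for a flat profile. S100a9 stood at place 33 when members below 1 CPM were ranked too, with a difference of 0.90. None of the 5 is a gene of the neutrophil lists. With 145 reads of S100a8 in all, counting error is part of these differences.

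Markers of other cell types varied between mice of the same genotype. The summed level of 8 B cell genes was 36.3, 94.3 and 13.3 CPM in WT, against 35.9, 36.6 and 77.4 CPM in S303/7A, highest in WT 2. That of 8 T cell genes was 94.5, 99.7 and 55.3 CPM against 109, 90.8 and 81.8 CPM, highest in S303/7A 5. The 9 dendritic cell genes summed to 768, 613 and 580 CPM in WT, against 304, 502 and 323 CPM in S303/7A, without overlap. Most of this sum was Itgax, at 727, 564 and 542 CPM in WT, against 263, 464 and 278 CPM in S303/7A. The sum thus follows Itgax and does not speak for the rest of the list. Of the other tested genes, Bst2, Zbtb46, Ccr7, Xcr1 and Cd209a overlapped between the genotypes, and Flt3 was lower in S303/7A without overlap. In edgeR no gene of the 7 tested in this list passed the threshold, and Itgax alone fell under 0.05 before adjustment. The summed level of 9 erythroid genes, most of it Car2 (log2 fold 0.28), was 363 to 482 CPM in WT and 431 to 527 CPM in S303/7A. In edgeR 0 of 8 tested were called, and folds were above 0 for 4 and below 0 for 4. Klf1 and Car1 reached an unadjusted p under 0.05. Both were lower in S303/7A without overlap (log2 folds -1.40 and -1.07). Over all genes tested, 5.47% were lower with such a p and 8.37% lay lower without overlap.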
